A study of Mus musculus with 19 samples.

Results

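Replication-dependent histone genes encode the bulk of the histone proteins around which DNA is wound, and were taken here as every mouse gene whose symbol begins with Hist1h, Hist2h, Hist3h or Hist4. By that rule 70 of the 54146 gene identifiers listed for each library were members: 6 genes of the linker histone H1, and 20 of H2A, 19 of H2B, 12 of H3 and 13 of H4, the core histones. RNA came from whole kidneys at postnatal day 21 (3 weeks of age), and the mice were of strain B6C3F1/J. In the KspCre DKO group were 2 libraries labelled KspCre Dnmt3ab f/f, with floxed alleles of the DNA methyltransferase genes Dnmt3a and Dnmt3b and a Cre driven by the promoter of Ksp-cadherin, a gene of kidney tubule epithelium. The control group held 3 libraries labelled Dnmt3ab f/f, which carry the same floxed alleles and no named Cre. The design sets the RNA of double-knockout kidneys against that of control kidneys. Cre is confined to part of the organ's cells by that promoter, whereas each library holds all cells of the kidney.

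Histone mRNA of this kind is made mostly while a cell copies its DNA, and it ends in a short stem-loop bound by the protein Slbp instead of a poly(A) tail. Nearly all of these genes lack introns and lie in clusters of many near-identical copies. In cells that have stopped dividing, some members also give RNA with a poly(A) tail. The libraries were made from poly(A)-selected RNA, so a value here reflects tailed or carried-over RNA and not the total histone mRNA of the tissue, and selection can catch it unevenly from library to library. Values are therefore given library by library.

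The unit throughout is TPM, a transcript abundance corrected for transcript length that sums to 1000000 in every library. It keeps no read number. Depth is therefore unknown, and no counting interval can be given. The libraries stood apart in complexity: 20510 and 14710 identifiers were above 0 TPM in KspCre DKO replicates 1 and 2, against 20075, 18703 and 18488 in control replicates 1 to 3. Mitochondrially encoded genes held 22.1% and 30.98% of all TPM in the KspCre DKO libraries and 18.2% to 23.2% in the controls. Dnmt3a stood at 9.98 and 14.2 TPM in KspCre DKO libraries, against 13.2, 19.0 and 15.5 TPM in controls, and Dnmt3b at 2.29 and 3.25 TPM against 1.82, 2.86 and 1.98 TPM. The targeted genes overlapped between the groups, so they do not check the labels. Cdh16, the gene of Ksp-cadherin, averaged 1013 ± 152 TPM in KspCre DKO libraries and 927 ± 51.3 TPM in control libraries (SD, n = 2 and n = 3). Whether each library is a separate animal is not stated, so the spread behind each p-value is that between libraries and may be technical.

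The promoters of the members that the results turn on are shown first, since they display which copies have like promoters. Each run gives the 150 bases before the annotated start of transcription, read 5′ to 3′ on the gene's strand, from RefSeq for assembly GRCm38.p6. Capitals mark matches, on either strand, to a CCAAT box (CCAAT), an AC box (AAACACA, an element of H1 promoters), an octamer (ATTTGCAT, an element of H2B promoters) or a TATA box (TATAAA).
Hist2h2bb, chr3:96269550-96269699, plus strand: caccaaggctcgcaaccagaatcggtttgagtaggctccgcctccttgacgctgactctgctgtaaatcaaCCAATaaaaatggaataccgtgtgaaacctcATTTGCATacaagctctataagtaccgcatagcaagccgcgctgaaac
Hist2h2aa1, chr3:96245347-96245496, plus strand: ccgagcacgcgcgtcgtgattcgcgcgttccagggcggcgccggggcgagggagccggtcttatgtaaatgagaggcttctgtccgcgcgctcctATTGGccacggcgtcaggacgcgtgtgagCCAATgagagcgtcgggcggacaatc
Hist2h2aa2, chr3:96240375-96240524, minus strand: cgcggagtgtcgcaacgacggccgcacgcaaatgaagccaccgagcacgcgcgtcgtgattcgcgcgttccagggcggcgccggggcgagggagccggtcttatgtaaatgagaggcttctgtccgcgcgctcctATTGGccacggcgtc
Hist1h2bq, chr13:21810200-21810349, minus strand: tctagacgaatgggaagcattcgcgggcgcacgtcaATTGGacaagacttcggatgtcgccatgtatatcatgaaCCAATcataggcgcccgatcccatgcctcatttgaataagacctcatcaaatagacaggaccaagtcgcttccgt
Hist1h2br, chr13:21833593-21833742, plus strand: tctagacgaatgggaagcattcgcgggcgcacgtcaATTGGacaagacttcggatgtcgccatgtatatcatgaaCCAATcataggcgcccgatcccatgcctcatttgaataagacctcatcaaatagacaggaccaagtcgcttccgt
Hist1h1c, chr13:23738657-23738806, plus strand: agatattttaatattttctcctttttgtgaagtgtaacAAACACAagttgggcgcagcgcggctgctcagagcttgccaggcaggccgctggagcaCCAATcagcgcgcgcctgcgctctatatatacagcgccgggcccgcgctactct

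Hist1h2bq and Hist1h2br carried the same letters at 250 of 250 bases before their starts. The Hist2h2aa1 and Hist2h2aa2 windows held 1 sequence shifted by 40 bases, with 199 of 210 overlapping bases alike (94.8%). Among the 1770 pairs of members with 1 promoter window each, slid along each other without gaps over at least 150 bases, only 3 more pairs reached that level: Hist1h4m with Hist1h4n (100%), Hist2h3c1 with Hist2h3c2 (99.6%) and Hist1h4j with Hist1h4k (95.8%). The next pair reached 52.2%, and the median pair 34.3%. Transcript sequences were not compared, and these promoter letters are not part of the RNA. Reads that map equally to near-identical copies are divided between them by estimate. Values of the members of these 5 pairs are therefore uncertain one by one, and pair sums are given beside them. Other members, Hist2h2bb among them, may share reads too, which was not examined.

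Most members gave little or no RNA in these libraries. Of the 70, 19 (27.1%) were listed at 0 in all 5 libraries, against 57.7% of all identifiers, and 36 more averaged below 1 TPM. The remaining 15 averaged at least 1 TPM over the 5 libraries, the filter for testing, and 9 of those averaged at least 5 TPM. By class, 1 of 6 H1 genes, 4 of 20 H2A genes, 7 of 19 H2B genes, 1 of 12 H3 genes and 2 of 13 H4 genes were tested. The testis histone genes Hist1h2aa and Hist1h2ba were listed at 0 in every library, and Hist1h1t, the testis linker histone gene, stood at 0.19 TPM in KspCre DKO replicate 1 and at 0 in the others. The number of members above 0 was lowest in the library of lowest complexity, but did not follow the order of complexity throughout. It was 36 and 16 of 70 in KspCre DKO replicates 1 and 2, against 38, 26 and 32 in the controls. The highest value among the 36 low members was 4.04 TPM, for the H2A gene Hist1h2ab in KspCre DKO replicate 2, and that gene was listed at 0 in the other 4 libraries.

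The low members were scattered over the libraries. Of the 36, 14 were above 0 in 1 library only, 10 in 2, 1 in 3, 10 in 4 and 1 in all 5. A value of at least 1 TPM was seen for 14 of them in some library, and of at least 2 TPM for 3 (Hist1h2ab, Hist1h4k and the H2A pseudogene Hist1h2aj). Hist1h2bk, an H2B gene, stood at 0.51 and 0 TPM in KspCre DKO libraries, against 1.03, 1.32 and 1.11 TPM in controls, and Hist1h3d, an H3 gene, at 0.19 and 0 TPM, against 0.66, 0.29 and 1.60 TPM. In both, each control was above both KspCre DKO libraries, and in both the 0 was in the library of lowest complexity. Hist1h1d, the H1.3 linker histone gene, was the low member above 0 everywhere, at 0.72 and 0.81 TPM, against 0.26, 0.14 and 0.81 TPM. The single Hist4 member, the H4 gene Hist4h4 on chromosome 6, did not exceed 0.10 TPM.

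Summed over all members, the histone level did not differ beyond the spread between libraries. The sum was 295 and 358 TPM in KspCre DKO libraries, against 379, 255 and 343 TPM in control libraries, with means of 327 ± 45.0 and 326 ± 63.8 TPM (SD, n = 2 and n = 3). The groups overlapped. In bulk tissue such a level cannot tell fewer cells of a type from less RNA per cell. The makeup of the sum is drawn in the stacked bars by library. Hist2h2aa2 and Hist2h2aa1 together made 14.5% and 19.7% of it in KspCre DKO libraries, against 39.0%, 48.2% and 33.4% in controls. Without the 3 members that RefSeq lists as pseudogenes, of which Hist1h2al was the only abundant one, the sum was 210 and 276 TPM in KspCre DKO libraries, against 346, 255 and 341 TPM in controls. These groups overlap as well.

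**Figure D1:**
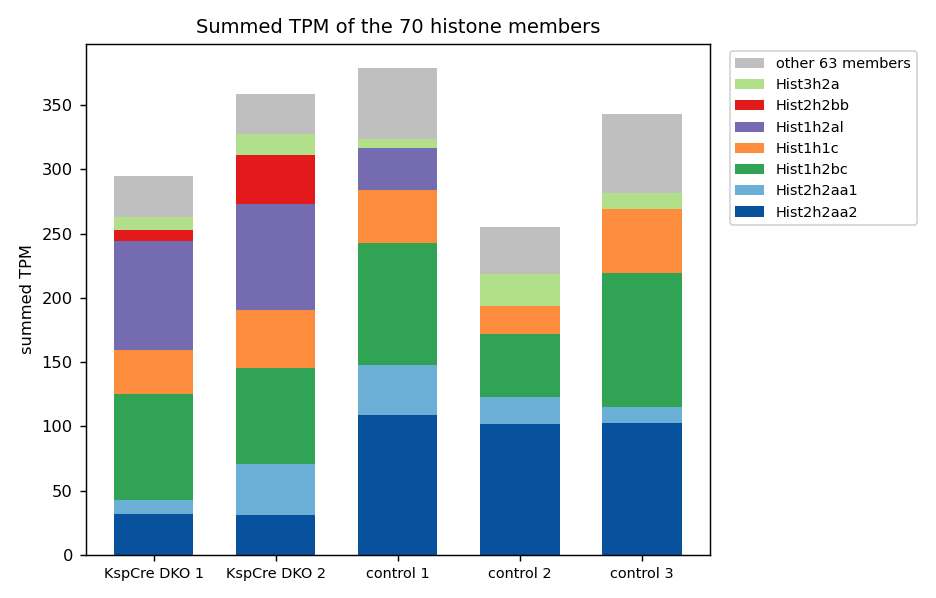
Stacked bars of TPM summed over the 70 members in each library, with 7 members drawn apart and the other 63 in grey. The Hist2h2aa2 segment is about 31 TPM in both KspCre DKO libraries and 102 to 109 TPM in the controls, while Hist1h2al and Hist2h2bb fill more of the KspCre DKO bars.

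The tested members were read from a limma fit over 13963 genes on log2(TPM + 1), with Benjamini-Hochberg adjustment over all of them. In that fit 23 genes passed adjusted p below 0.05 (0.165% of those tested), 14 higher (0.1%) and 9 lower (0.0645%) in KspCre DKO libraries. Of the 15 tested members 1 passed, the H2B gene Hist2h2bb, which was higher, and none was lower. At unadjusted p below 0.05 there were 4 of 15 members, against 10.3% of all tested genes. Groups without overlap were seen in 2 members higher and 3 lower, against 10.5% and 15.6% of all tested genes. A member such as Hist2h2bb passed the filter only through the group where it was high, so these counts lend no support to a shift of the members. The median log2 fold change of the 15 was −0.04, beside −0.14 for all tested genes, and it became 0.07 with median-of-ratios scaling and 0.04 with quantile normalization, which moved the median of all genes to −0.04 and −0.02.

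**Figure D2:**
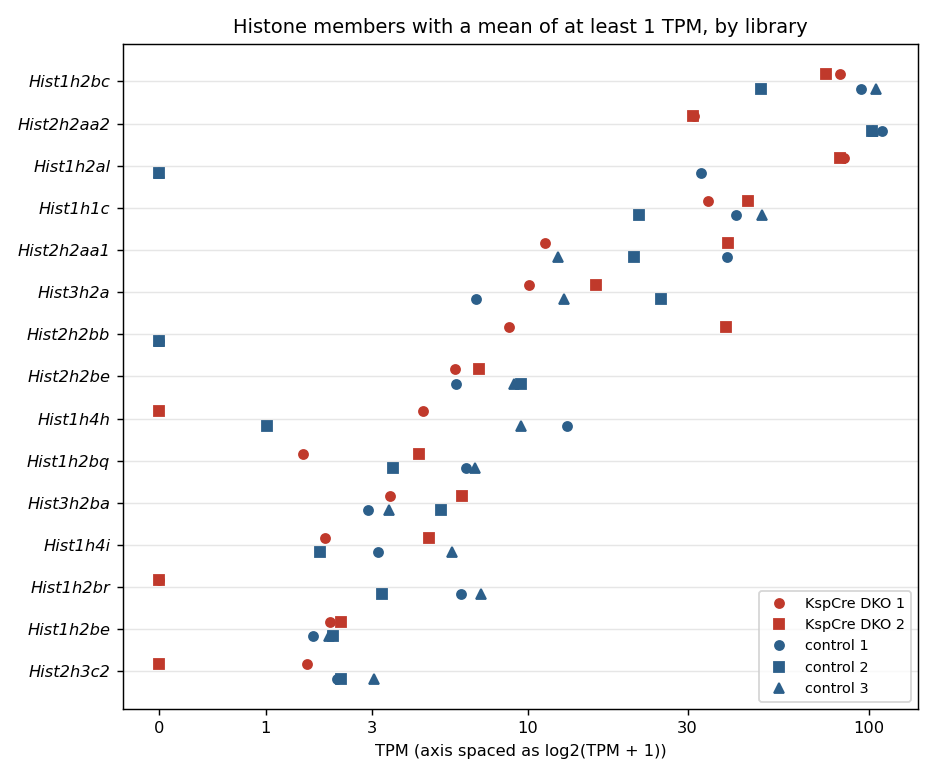
TPM of the 15 tested members in each library on an axis spaced as log2(TPM + 1), KspCre DKO in red above and control in blue below each line, with one shape per replicate number; libraries listed at 0 coincide at the left edge. Hist2h2aa2, Hist1h2al, Hist2h2bb, Hist1h2br and Hist2h3c2 have groups that do not overlap.

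Among linker histone genes, Hist1h1c (chromosome 13, 23738807 to 23739531), which encodes the H1.2 subtype common in resting cells, was the only member above 2 TPM. It stood at 34.5 and 44.9 TPM in KspCre DKO libraries, against 41.4, 21.6 and 49.4 TPM in controls. The groups overlapped, with control replicate 2 lowest and control replicate 3 highest (log2 fold change 0.15 ± 0.38 SE, limma adjusted p = 0.917). The other H1 genes, which are linked to dividing cells or to the testis, stayed at or below 1.36 TPM in every library. H1 genes together summed to 36.8 and 45.7 TPM, against 43.4, 21.9 and 51.3 TPM.

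The H2A genes summed to 138 and 173 TPM in KspCre DKO libraries, against 189, 150 and 133 TPM in controls, with overlap. Among them Hist2h2aa2 (chromosome 3, 96239779 to 96240374) stood at 31.42 and 31.02 TPM in KspCre DKO libraries, against 109, 102 and 102 TPM in controls. The groups lay far apart and each was tight, with a log2 fold change of −1.71 ± 0.25 (SE, n = 2 and n = 3) and limma adjusted p = 0.0512, just short of the threshold and rank 26 of all genes by p. The call depended on the setting: of 15 alternatives 4 called it lower, with adjusted p from 0.0382 to 0.226 and a log2 fold change from −1.74 to −1.59.

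Its near copy Hist2h2aa1 (chromosome 3, 96245497 to 96246052) stood at 11.3 and 39.4 TPM in KspCre DKO libraries, against 39.0, 20.8 and 12.4 TPM in controls, and the groups overlapped (limma adjusted p = 0.993). The ratio of Hist2h2aa2 to Hist2h2aa1 was 2.79 and 0.787 in KspCre DKO libraries, against 2.79, 4.90 and 8.29 in controls, so the division between the copies was not stable within either group. Reads shared with other H2A members were not examined. One of these, the pseudogene Hist1h2al, was higher in KspCre DKO libraries (84.5 and 82.4 TPM, against 32.8, 0 and 0 TPM). The pair sum does not depend on the division between the copies, but it could depend on such sharing. It was 42.7 and 70.5 TPM in KspCre DKO libraries, against 148, 123 and 115 TPM in controls, a log2 ratio of group means of −1.18. The groups did not overlap in the pair sum, nor with median-of-ratios scaling, with TPM rescaled without mitochondrially encoded genes, or with any library left out, where the log2 ratio ranged from −1.59 to −0.87.

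Hist1h2al (chromosome 13, 51200084 to 51203066), which RefSeq lists as a transcribed H2A pseudogene, lies far from the Hist1 cluster at positions 21715711 to 23934913 of the same chromosome. It stood at 84.5 and 82.4 TPM in KspCre DKO libraries, against 32.8, 0 and 0 TPM in controls. Both KspCre DKO libraries were above every control, but the controls differed too widely among themselves for a call (limma adjusted p = 0.271). Without control replicate 1, the only control above 0, adjusted p was 1.75e-04, and over the 15 alternatives adjusted p reached 0.803. A pseudogene can share reads with its parent copies, which was not examined.

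Hist3h2a, an H2A gene of the small chromosome 11 cluster, stood at 10.1 and 16.1 TPM in KspCre DKO libraries, against 6.84, 25.1 and 12.9 TPM in controls. The groups overlapped, and the controls alone spanned the whole range. Its neighbour Hist3h2ba, an H2B gene, stood at 3.49 and 6.14 TPM, against 2.89, 5.26 and 3.45 TPM, and overlapped too (limma adjusted p = 0.984 and 0.855).

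The H2B genes summed to 106 and 135 TPM in KspCre DKO libraries, against 120, 74.0 and 134 TPM in controls, with overlap. Hist1h2bc (chromosome 13, 23684199 to 23692480) was the member of highest mean, at 82.7 and 75.0 TPM in KspCre DKO libraries, against 94.7, 49.0 and 105 TPM in controls. The groups overlapped, with equal means on the log2 scale (log2 fold change 0.00 ± 0.36 SE, limma adjusted p = 1.0). As for Hist1h1c, control replicate 2 was lowest and control replicate 3 highest. The ratio of Hist1h2bc to Hist1h1c varied little, at 2.40 and 1.67 in KspCre DKO libraries, against 2.29, 2.27 and 2.12 in controls.

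Hist2h2bb (chromosome 3, 96269700 to 96270192) stood at 8.73 and 38.7 TPM in KspCre DKO libraries and was listed at 0 in each of the 3 controls. It was the member of smallest p, rank 16 of all genes (limma adjusted p = 0.0462). Its 2 values differ widely within the KspCre DKO group, and no fold is given against a group listed at 0. The call held in 4 of 15 alternatives, with adjusted p from 0.0105 to 0.356. Among the settings that lost it were median-of-ratios scaling (0.0703), quantile normalization (0.0655), and the fits without KspCre DKO replicate 2 (0.135), without control replicate 2 (0.159) and without control replicate 3 (0.142). Whether its reads are shared with other H2B genes was not examined. The H3 gene next to Hist2h2bb, Hist2h3b, was listed at 0 in all 5 libraries.

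Hist1h2br (chromosome 13, 21833743 to 21837530) went the other way. It was listed at 0 in both KspCre DKO libraries and stood at 6.09, 3.25 and 7.11 TPM in controls (limma adjusted p = 0.0712). Hist1h2bq, whose promoter letters are the same, stood at 1.55 and 4.42 TPM in KspCre DKO libraries, against 6.33, 3.56 and 6.80 TPM in controls, and overlapped (adjusted p = 0.589). In the controls the ratio of Hist1h2bq to Hist1h2br lay between 0.956 and 1.10. The pair sum was 1.55 and 4.42 TPM in KspCre DKO libraries, against 12.4, 6.81 and 13.9 TPM in controls, without overlap (log2 ratio of group means −1.89, and −2.83 to −1.32 with a library left out). Hist1h2be, at 1.71 to 2.26 TPM in all 5 libraries, and Hist2h2be, at 5.86 and 7.01 TPM against 5.88, 9.48 and 9.06 TPM, overlapped between groups (adjusted p = 0.947 and 0.804).

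H3 and H4 genes were low. The 12 H3 genes together summed to 2.81 and 0.25 TPM in KspCre DKO libraries, against 5.45, 3.04 and 6.92 TPM in controls, without overlap. The tested H3 gene, Hist2h3c2, stood at 1.62 and 0 TPM, against 2.17, 2.27 and 3.04 TPM (limma adjusted p = 0.505), and summed with its copy Hist2h3c1 at 1.62 and 0 TPM, against 2.44, 2.27 and 3.19 TPM. The 0 was in KspCre DKO replicate 2, where the fewest identifiers were above 0. The 13 H4 genes summed to 10.9 and 4.78 TPM, against 20.7, 6.24 and 18.0 TPM, with overlap. Hist1h4h stood at 4.54 and 0 TPM, against 13.1, 1.01 and 9.51 TPM, and Hist1h4i at 1.94 and 4.78 TPM, against 3.14, 1.84 and 5.72 TPM (adjusted p = 0.619 and 0.976). The groups overlapped in both. Of the near-identical H4 copies, Hist1h4j and Hist1h4k summed to 1.31 and 0 TPM, against 0.65, 2.85 and 0.38 TPM, and Hist1h4m and Hist1h4n to 1.07 and 0 TPM, against 1.90, 0 and 0.64 TPM, with overlap in both.

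**Figure D3:**
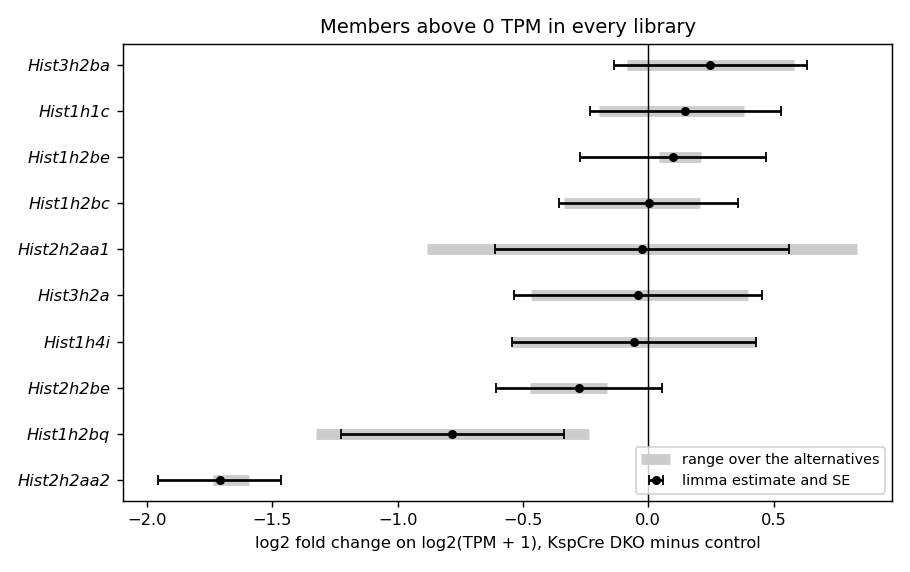
Log2 fold changes, KspCre DKO minus control, of the 10 tested members above 0 TPM in every library: points are limma estimates, whiskers SE, and grey bars the range over the alternative settings. Hist2h2aa2 stands apart near −1.71 with a narrow range, while Hist2h2aa1 spans 0 with the widest one.

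By position, the Hist2 cluster on chromosome 3 (96219885 to 96270192, 10 members in 50308 bases) was lower in sum, at 59.5 and 116 TPM in KspCre DKO libraries, against 156, 135 and 128 TPM in controls, without overlap. Members within it did not move together. Hist2h2aa2 was low, Hist2h2bb near the far end was high, and 3 of the 10 (Hist2h2ab, Hist2h2ac and Hist2h3b) were listed at 0 throughout. The Hist1 members on or named for chromosome 13 summed to 222 and 220 TPM, against 213, 89.9 and 199 TPM, without overlap. Without the distant Hist1h2al their sum was 137 and 138 TPM, inside the control range of 180, 89.9 and 199 TPM.

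**Figure D4:**
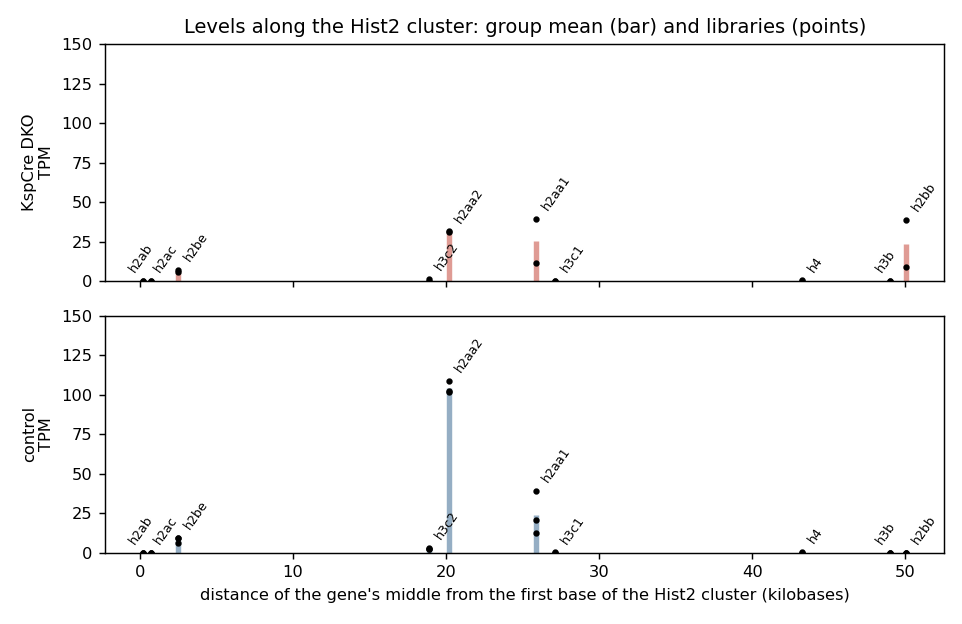
TPM along the Hist2 cluster, plotted against distance in kilobases from its first base, KspCre DKO above and control below; bars are group means and points are libraries, and gene names drop the prefix Hist2. The h2aa2 bar is shorter in the KspCre DKO panel, and h2bb at the right end is above 0 in that panel alone.

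The members that passed the filter for testing differed from the others in gene span. Of the 7 members whose RefSeq span exceeds 1000 bases 6 were tested (Hist1h2al, Hist1h2bc, Hist1h2be, Hist1h2bq, Hist1h2br and Hist2h2be), and 1 was not (Hist1h2bp). Of the 62 members with a shorter span 9 were tested. The median span was 492 bases. These shares are a description, since level and span were set side by side after both were known.

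Promoter windows were found for 61 members, 62 windows in all. In the 250 bases before the start, on either strand, a TATAAA match was present in 46.8% of member windows and 12.4% of all 32851 RefSeq windows of that length. CCAAT was present in 82.3% against 33.8%, the octamer in 22.6% against 1.60%, and AAACACA in 14.5% against 6.25%. Every H1, H2A and H2B window held CCAAT, and 5 of 6 H1 windows held AAACACA. The octamer was seen in 7 of 17 H2B and 7 of 17 H2A windows and in no other class. Of the 61 members 18 form 9 divergent H2A and H2B pairs whose starts lie 163 to 280 bases apart, so their windows share bases and are not independent. In 8 of these pairs neither gene was tested, and in the ninth Hist1h2bq was, while its partner Hist1h2ao was listed at 0. Pairs could be sought only among the 61 members with a start and strand. Hist1h2bc and Hist2h2be had no strand, so whether they lie in such pairs was not examined. TATAAA was present in 2 of 13 windows of members averaging at least 1 TPM (15.4%), against 27 of 49 windows of the others (55.1%). The 13 include the identical windows of Hist1h2bq and Hist1h2br and the near-identical ones of Hist2h2aa1 and Hist2h2aa2. They also include both windows of Hist1h2be. All of these lack TATAAA, so the 13 are not independent either. Only the exact letters were counted, at any position, and the match of Hist1h4i begins 137 bases before the start. Hist1h2bc, Hist1h2al and Hist2h2be had no window, and Hist1h2be had 2. The called gene Hist2h2bb held CCAAT and the octamer, and Hist2h2aa1 and Hist2h2aa2 held CCAAT on 1 or both strands and neither TATAAA nor the octamer in these letters.

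**Figure D5:**
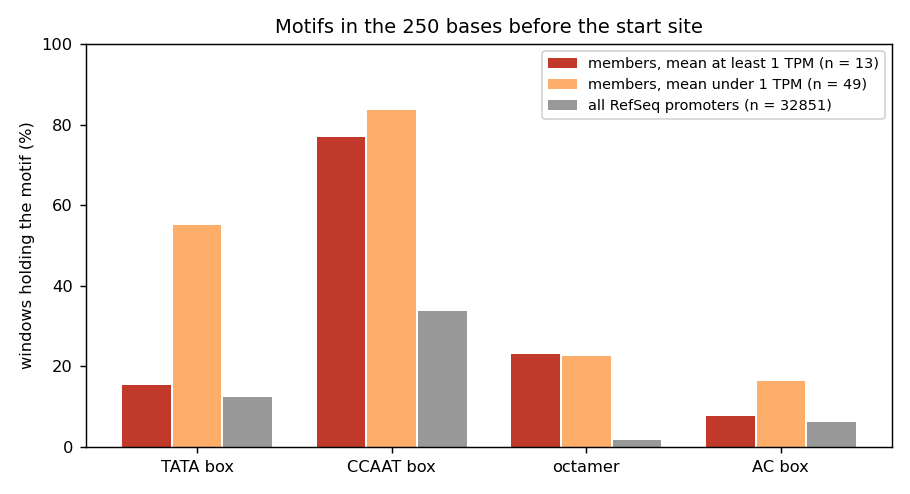
Percent of promoter windows (250 bases before the start, both strands) that hold each motif, for members averaging at least 1 TPM, members below, and all RefSeq promoters. CCAAT and the octamer are about as common in both member groups, and exact TATAAA stands at 15.4% in the first and 55.1% in the second. Some member windows are identical or near-identical copies, so they are not independent.

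Genes around the histone pathway were taken from lists, and none of them was called by limma. At unadjusted p below 0.05, where 10.3% of all tested genes lay, there were 2 of 11 tested variant genes, 0 of 19 processing genes, 0 of 15 chaperone genes and 2 of 22 S-phase genes. Of the markers there were 1 of 4 for proliferation, 2 of 5 erythroid, 1 of 2 leukocyte and 3 of 13 kidney ones, and 0 of 6 neighbours of the Hist1 cluster. These are small counts, and nothing particular to a list is read from them. Replication-independent histone variants, whose mRNA has a poly(A) tail and introns in most cases, were all tested, and none of the 11 passed (2 higher, 9 lower, median log2 fold change −0.52). H1f0, the linker histone of resting cells, stood at 143 and 129 TPM in KspCre DKO libraries, against 95.7, 98.8 and 102 TPM in controls, without overlap (limma adjusted p = 0.565). Cenpa, the centromeric H3, stood at 5.34 and 2.84 TPM, against 15.7, 7.56 and 10.1 TPM (adjusted p = 0.329), and H1fx at 1.91 and 0.83 TPM, against 3.18, 4.30 and 3.44 TPM (adjusted p = 0.425). For scale, H3f3a, a source of the H3.3 variant, averaged 540 ± 97.0 TPM in KspCre DKO libraries and 460 ± 122 TPM in controls, far above the 12 replication-dependent H3 genes together. Replication-dependent mRNA mostly lacks a poly(A) tail, so after poly(A) selection these levels do not compare the total H3 mRNA of the tissue.

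Of 20 genes for transcription, processing and decay of histone mRNA 19 were tested and none passed, with a median of −0.14, which became 0.045 with quantile normalization. Slbp, the stem-loop binding protein, stood at 19.7 and 11.1 TPM in KspCre DKO libraries, against 21.1, 17.3 and 27.2 TPM in controls (limma adjusted p = 0.654). Cpsf3, the nuclease that cuts histone pre-mRNA, stood at 30.2 and 68.1 TPM, against 18.6, 20.4 and 39.4 TPM (adjusted p = 0.556). Lsm1, of the decay machinery, stood at 6.22 and 4.44 TPM, against 5.58, 7.14 and 11.8 TPM (adjusted p = 0.687). The groups overlapped in each of these genes. None of 15 tested histone chaperone genes passed either (median −0.22), with Atrx, Cabin1 and the H3-H4 carrier Nasp at adjusted p = 0.602, 0.671 and 0.693. Nasp stood at 24.6 and 24.3 TPM in KspCre DKO libraries, against 30.6, 33.7 and 29.5 TPM in controls, and Cabin1 at 19.9 and 13.4 TPM, against 21.2, 23.3 and 21.4 TPM, both without overlap. Of the 15 tested chaperone genes, 2 were lower and 1 was higher without overlap. Over all tested genes 15.6% and 10.5% were, so the count does not set the list apart.

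S-phase genes, active when histones are made, had 22 of 26 members tested and none called (6 higher, 16 lower, median −0.20). Rrm2, a subunit of ribonucleotide reductase, stood at 4.10 and 2.03 TPM in KspCre DKO libraries, against 9.76, 5.43 and 8.94 TPM in controls (limma adjusted p = 0.352). Mcm6, of the replicative helicase, stood at 7.18 and 2.16 TPM, against 13.2, 6.99 and 13.3 TPM (adjusted p = 0.428), and Pold1, of DNA polymerase delta, at 11.5 and 32.5 TPM, against 12.1, 9.53 and 13.1 TPM (adjusted p = 0.606). Pcna, the polymerase clamp, overlapped, at 37.4 and 14.7 TPM against 35.5, 23.2 and 40.7 TPM. Of the 22 tested, 2 (Rrm1 and Rrm2) had groups without overlap, both lower, beside 15.6% of all tested genes, so the count does not set the list apart.

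Markers of other cells differed between the libraries and are given beside the histone values. The 4 proliferation markers Mki67, Top2a, Cdk1 and Ccnb1 summed to 12.2 and 10.4 TPM in KspCre DKO libraries, against 35.6, 9.40 and 23.2 TPM in controls. The 55 histone members below 1 TPM on average summed to 10.6 and 6.20 TPM, against 13.8, 7.58 and 14.8 TPM, so control replicate 2 was the lowest control for both. Mki67, the general marker of cycling cells, stood at 1.65 and 2.2 TPM, against 8.03, 1.32 and 4.61 TPM. Top2a, a topoisomerase of dividing cells, stood at 3.48 and 0.22 TPM, against 9.31, 2.81 and 6.64 TPM, and Ccnb1, a mitotic cyclin, at 0.75 and 0 TPM, against 3.41, 0.13 and 2.74 TPM (limma adjusted p = 0.454 and 0.638). All 3 overlapped between the groups.

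The 6 erythroid markers summed to 8504 and 9899 TPM in KspCre DKO libraries, against 8330, 983 and 3493 TPM in controls. Control replicate 2 was again lowest, as it was for Hist1h1c and Hist1h2bc. Control replicate 3, highest for both of those genes, had the erythroid sum of 3493 TPM. Hist1h2al was above 0 in the 3 libraries with the highest erythroid sum. It stood at 32.8 TPM in control replicate 1 and 84.5 TPM in KspCre DKO replicate 1, whose sums were 8330 and 8504 TPM. The alpha-globin gene Hba-a2 stood at 2941 and 3765 TPM, against 1336, 204 and 1181 TPM, and the beta-globin gene Hbb-bt at 369 and 367 TPM, against 303, 23.2 and 60.0 TPM, both without overlap (limma adjusted p = 0.318 and 0.412, and each called in 1 of 15 alternatives). Hba-a1, another alpha-globin gene, stood at 2296 and 3921 TPM, against 3411, 426 and 1204 TPM, and overlapped (adjusted p = 0.580).

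The 4 leukocyte markers found (Ptprc, Cd3e, Cd79a and Lyz2) summed to 10.7 and 3.22 TPM in KspCre DKO libraries, against 31.2, 14.0 and 28.9 TPM in controls, without overlap. Lyz2, a lysozyme gene of myeloid cells, made most of that sum, at 8.75 and 2.84 TPM, against 26.6, 12.6 and 25.7 TPM (limma adjusted p = 0.241), and Ptprc, the CD45 gene, stood at 1.05 and 0.38 TPM, against 3.07, 0.86 and 1.52 TPM (adjusted p = 0.676). None of the 4 proliferation, 5 erythroid and 2 leukocyte genes that entered the fit passed the limma test, with median log2 fold changes of −0.88, 1.31 and −1.24. The part of these cells in the histone values was not tested.

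Tubule markers are given because Cre acts there. All 13 markers of kidney cell types were above 0 in every library, and none was called as fitted. Slc12a1, a marker of the thick ascending limb, stood at 191 and 61.3 TPM in KspCre DKO libraries, against 394, 562 and 519 TPM in controls (limma adjusted p = 0.141, called in 1 of 15 alternatives, without KspCre DKO replicate 1 at 0.0292). Umod, of the same segment, stood at 285 and 193 TPM, against 802, 489 and 542 TPM (adjusted p = 0.173). Aqp2 of principal cells stood at 1414 and 1218 TPM, against 347, 240 and 426 TPM (adjusted p = 0.0512). Its call depended on the setting, as 7 of 15 alternatives called it higher, with adjusted p from 0.00575 to 0.356. Slc12a3 of the distal convoluted tubule, at 231 and 181 TPM against 155, 133 and 127 TPM, and the fibroblast gene Dcn, at 15.1 and 24.0 TPM against 29.4, 24.2 and 28.4 TPM, were the other 2 of 5 markers without overlap. Of the 13, 2 were higher and 3 lower without overlap, beside 10.5% and 15.6% of all tested genes. Nothing particular to these markers is read from that count. Like Hist2h2aa2, these 5 markers had groups without overlap, but not all were as far apart. For Dcn the nearest libraries were KspCre DKO replicate 2 at 23.95 TPM and control replicate 2 at 24.16 TPM. The part of these markers' cells in the Hist2h2aa2 value was not tested. Between the outermost genes of the Hist1 cluster RefSeq places 51 protein-coding genes that are not histone members, of which 42 were matched, 28 were listed at 0 throughout and 6 were tested. None of the 6 passed, with a median of −0.28. Hfe, a regulator of iron uptake, stood at 7.64 and 3.41 TPM, against 11.7, 7.49 and 6.14 TPM (limma adjusted p = 0.668). The phosphate and urate transporter gene Slc17a1 stood at 117 and 41.2 TPM, against 112, 81.6 and 92.0 TPM, and Zfp322a at 7.19 and 1.83 TPM, against 4.49, 4.24 and 7.07 TPM (adjusted p = 0.745 and 0.836).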

How the data were processed

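Whole-kidney poly(A) RNA was sequenced from TruSeq libraries, per the labels' protocols. Named without roles in the submitters' processing notes are RSEM 1.3.1, STAR 2.2.1, Bismark 0.19.1, Trim Galore 0.5.0 and build mm10. The values the authors deposited are TPM per Ensembl gene. Neither annotation release nor strand setting is given in the sources used here. Depth is unknown, and a listed 0 can be an estimate that failed. Of 54146 identifiers 52480 (96.9%) had a symbol, and 69 of 70 members matched 1 RefSeq gene by symbol or synonym (GRCm38.p6, the family of mm10). The 14 bisulfite samples are not analysed here.

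Values on the log2(TPM + 1) scale were tested with limma 3.58.1 (R 4.3.3), two-sided and with an intensity trend, for 13963 genes averaging at least 1 TPM, adjusted by Benjamini-Hochberg over all genes. Fold changes are KspCre DKO minus control on that scale and understate low genes. For 2 against 3 libraries an exact permutation cannot go below p = 0.1, so none is given. On simulated data the limma fit recovered most large changes and almost none of the smallest ones simulated. Those changes were placed only in genes with a mean log2(TPM + 1) above 3. The simulation therefore does not cover members below that level or a group listed at 0. It also shuffled the fitted variances over genes, so the link of spread to level was lost. Recovery in the real libraries may therefore differ.

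The members and lists were chosen with earlier results of these data known. Named were members called, the 12 of highest mean, the 6 of smallest p in each direction, those at 5 TPM or more without overlap and those at 0 in 1 group, and in each list called genes and the 3 of smallest p. The pair sums, the gene spans and the genes Hist1h2ab, Hist1h2bk, Hist1h3d, Hist1h1d, Hist2h3b, H3f3a, Rrm1, Cdh16, Slc12a3, Dcn and the testis histones were picked with their values in view. The alternatives were a pseudocount of 0.1 or 5, the filter dropped or set to 5 TPM, median-of-ratios scaling, quantile normalization, rescaling without mitochondrially encoded genes, array weights, no trend, a replicate block, and leaving out each library.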

Additional observations from a re-analysis of the deposited data

How the results depend on the processing

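TPM keep no depth, so what counting error limits is unknown, and 2 against 3 libraries leave few degrees of freedom. Over all genes, calls higher and lower (14 and 9 as reported) were 7 higher with a pseudocount of 0.1 and 28 higher with 5, 3 and 1 without a filter, 24 higher with median-of-ratios scaling, 35 higher with quantile normalization and 25 higher without mitochondrially encoded genes. They were 6 and 3 without the trend, 3 and 2 with array weights, and 47 and 28 with the replicate block. In that block control replicate 3 has no KspCre DKO library of its number. It adds nothing to the group estimate, which rests on 2 against 2 libraries. With 1 library left out they ranged from 3 to 90 higher and 3 to 470 lower, both highest without KspCre DKO replicate 1. The median of all genes ranged from −0.39 to 0.13 and that of the histone members from −0.36 to 0.21. Refits without a KspCre DKO library assume that the lone library varies like the controls.

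Of histone members, 1 higher and 0 lower were called as reported (4 at unadjusted p below 0.05). The count higher was 0 with either pseudocount, without a filter, with a 5 TPM minimum, with median-of-ratios scaling, with quantile normalization, without the trend and with array weights. The count lower was 1 (Hist2h2aa2) with a pseudocount of 5, with a 5 TPM minimum and without mitochondrially encoded genes. With a library left out the members called ranged from 0 to 2 higher and 0 to 2 lower. The log2 ratio of the summed TPM was 0.00 as reported, and −0.37 without the 3 pseudogene members, an alternative chosen after seeing the data like those for the pair sums; without a library it ranged from −0.14 to 0.14.

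Members near 0 turned direction, none of them called. Hist1h4i, Hist2h2aa1 and Hist3h2a became 0.059, 0.091 and 0.067 with median-of-ratios scaling, 0.025, 0.048 and 0.038 with quantile normalization and 0.037, 0.084 and 0.067 without mitochondrially encoded genes. With array weights Hist1h1c, Hist1h2bc, Hist2h2aa1 and Hist3h2a became −0.028, −0.16, 0.14 and 0.057. Hist1h2bc became −0.0024 with a pseudocount of 5, and Hist1h4i 0.27 with the replicate block. With a library left out the ranges were −0.20 to 0.38 for Hist1h1c, −0.33 to 0.21 for Hist1h2bc, −0.55 to 0.43 for Hist1h4i, −0.88 to 0.83 for Hist2h2aa1, −0.47 to 0.40 for Hist3h2a, −0.087 to 0.58 for Hist3h2ba, −1.08 to 0.21 for Pcna, −1.12 to 0.41 for Zfp322a and −1.18 to 0.30 for Slc17a1. The cause was not tested.

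Replicate numbers are in the titles but no label says that they pair libraries. Same-numbered libraries correlated at 0.0926 and 0.0281 in their deviations from the group means. The differently numbered KspCre DKO replicate 2 and control replicate 3 correlated at 0.0708. The deviations of the 2 KspCre DKO libraries mirror each other, so these values cannot decide whether the numbers pair libraries. In the replicate block Hist2h2bb kept its call, Hist2h2aa2 had adjusted p = 0.0551, and 1 erythroid marker and the kidney marker Aqp2 (0.00575) were called higher. With a library left out, companion lists ranged from 0 to 1 called among processing and among erythroid genes, and their medians from −0.60 to −0.0032 (variants), −0.44 to 0.062 (processing), −0.36 to 0.023 (chaperones), −0.46 to 0.016 (S phase) and −0.78 to 0.27 (Hist1 neighbours).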
